A study of Homo sapiens with 8 samples.

Results

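The G2/M and mitosis genes described here are 56 genes that carry a cell from the end of S phase through division, from the kinase CDK1 and its cyclins to the kinesins and the proteins that cut the daughter cells apart. They were taken by symbol from a list of genes known for these roles, drawn up with earlier results of these data known but with no threshold on a measured value, and all 56 were found among the 62086 gene identifiers of the count table. The RNA came from human embryonic stem cells (hESCs) of the line BG01, grown without feeder cells in mTeSR medium with antibiotics. The cells received 5 µg/mL of anti-M8nAb, a neutralizing antibody against the secreted protein MFGE-8, or 5 µg/mL of normal mouse IgG as the control, for 12 or 24 h. Each of the 4 groups (IgG 12 h, anti-M8nAb 12 h, IgG 24 h and anti-M8nAb 24 h) holds 2 libraries. All groups are of 1 cell line, and the labels call the 2 libraries of a group biological replicates without saying whether they were grown as separate cultures. The p-values therefore rest only on how far these libraries differ, which may be technical. The comparison asks how blocking MFGE-8 bears on the messenger RNAs of cell division after each exposure.

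In dividing cells most of these genes are transcribed together, late in the cycle. A complex of MuvB proteins, which binds the cell cycle genes homology region near the start of such genes, represses them in resting cells with the pocket proteins RBL1 and RBL2 (the DREAM complex) and activates them in G2 with MYBL2 and FOXM1, often beside CCAAT boxes bound by NF-Y. CDK1 with cyclin B then drives entry into mitosis, the spindle checkpoint holds the cell until every kinetochore is attached, and the anaphase-promoting complex (APC/C) ends mitosis by marking cyclin B and securin for destruction. hESCs cycle quickly with a short G1 phase, so a large share of such a culture is in S, G2 or M phase at any time.

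The letters of these 2 promoter elements were looked for in RefSeq promoter windows (GRCh38.p14), which run from 250 bases before a start to 50 bases after it. Of the 56 genes, 47 had a window, 59 windows in all. AURKA, BIRC5, BUB3, CDCA2, FOXM1, RACGAP1, TPX2, TTK and UBE2C had none in the table. The homology region was searched as TTTGAA or TTTAAA and the CCAAT box as CCAAT, both on either strand. Matches can overlap: in MKI67 and CDCA8 a homology match and a CCAAT match share a base, and in HMMR and PTTG1 CCAAT matches on opposite strands overlap, and each was counted. The homology letters were in 46 of the 59 windows (78%), against 24% of all 35116 windows and 17.8% of the windows of the genes tested. Within the 60 bases before the start they were in 49.2% of the members' windows, against 5.49% of all windows. CCAAT was in 74.6% of the members' windows, against 34.6% of all. AURKB, BUB1, MYBL2, NEK2 and SGO1 had no homology letters in any window. Such matches are letters in a window, not sites shown to be bound.

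The 200 bases before the start of 8 genes are printed below on the strand of the gene, 5′ to 3′, with both kinds of letters in capitals, as read on either strand. PLK1, CCNB1, TOP2A, CENPA and CENPF are shown because their transcripts fell at both times, CKS1B and BUB1B because they hold the homology letters yet were higher at 24 h, and MYBL2 because these bases hold neither. The stretches lie at chr16:23678689-23678888 on the plus strand for PLK1, chr5:69166950-69167149 on the plus strand for CCNB1, chr17:40417897-40418096 on the minus strand for TOP2A, chr2:26785856-26786055 on the plus strand for CENPA, chr1:214602995-214603194 on the plus strand for CENPF, chr1:154974481-154974680 on the plus strand for CKS1B, chr15:40160869-40161068 on the plus strand for BUB1B and chr20:43666914-43667113 on the plus strand for MYBL2.
PLK1: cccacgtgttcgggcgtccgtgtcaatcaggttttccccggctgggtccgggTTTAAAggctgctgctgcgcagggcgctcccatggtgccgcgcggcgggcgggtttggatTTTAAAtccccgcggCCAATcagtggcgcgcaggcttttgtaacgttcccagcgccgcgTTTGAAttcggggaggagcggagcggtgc
CCNB1: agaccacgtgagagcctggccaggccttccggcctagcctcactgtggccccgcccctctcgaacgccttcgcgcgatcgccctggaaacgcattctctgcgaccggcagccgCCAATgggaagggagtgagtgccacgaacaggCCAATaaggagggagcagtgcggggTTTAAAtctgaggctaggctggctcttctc
TOP2A: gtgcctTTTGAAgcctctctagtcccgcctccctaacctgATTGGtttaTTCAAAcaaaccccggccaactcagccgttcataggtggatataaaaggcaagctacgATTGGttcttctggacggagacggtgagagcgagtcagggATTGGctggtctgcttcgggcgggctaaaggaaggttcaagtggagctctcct
CENPA: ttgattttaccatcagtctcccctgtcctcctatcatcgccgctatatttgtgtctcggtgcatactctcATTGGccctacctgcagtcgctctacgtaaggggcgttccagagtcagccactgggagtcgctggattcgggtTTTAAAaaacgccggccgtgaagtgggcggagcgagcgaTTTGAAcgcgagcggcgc
CENPF: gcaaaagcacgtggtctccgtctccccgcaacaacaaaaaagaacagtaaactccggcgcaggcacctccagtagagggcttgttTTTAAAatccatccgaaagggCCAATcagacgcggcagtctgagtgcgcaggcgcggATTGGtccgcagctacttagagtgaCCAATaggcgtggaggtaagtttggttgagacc
CKS1B: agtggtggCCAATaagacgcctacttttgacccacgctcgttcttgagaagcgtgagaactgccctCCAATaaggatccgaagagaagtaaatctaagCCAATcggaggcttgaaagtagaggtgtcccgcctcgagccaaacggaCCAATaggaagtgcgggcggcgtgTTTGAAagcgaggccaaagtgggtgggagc
BUB1B: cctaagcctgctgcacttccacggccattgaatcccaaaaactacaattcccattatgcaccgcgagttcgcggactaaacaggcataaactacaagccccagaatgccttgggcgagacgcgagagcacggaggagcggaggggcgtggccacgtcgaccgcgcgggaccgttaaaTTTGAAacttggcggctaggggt
MYBL2: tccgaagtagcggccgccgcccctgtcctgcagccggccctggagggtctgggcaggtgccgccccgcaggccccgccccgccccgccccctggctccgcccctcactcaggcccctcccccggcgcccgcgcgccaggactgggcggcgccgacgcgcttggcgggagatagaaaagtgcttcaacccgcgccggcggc

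**Figure D1:**
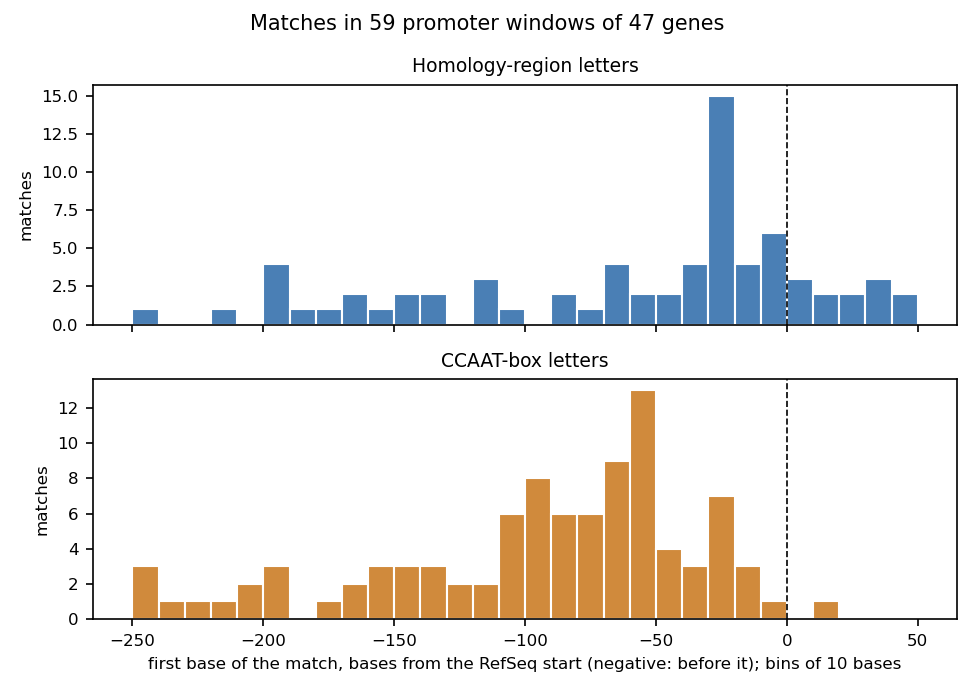
Number of matches to the homology-region letters (top) and to the CCAAT letters (bottom) in bins of 10 bases, against the distance of the match's first base from the RefSeq start, over 59 promoter windows of 47 genes. The homology letters were most frequent between 20 and 30 bases before the start and the CCAAT letters between 50 and 60 bases before it. Windows of 1 gene can overlap, so that a match can be counted more than once.

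Among the 42 genes with homology letters, the median log2 fold change of anti-M8nAb against IgG was -0.41 at 12 h and -0.37 at 24 h, and among the 5 without them it was -0.19 and -0.35. The 35 genes with both kinds of letters had medians of -0.41 and -0.37. The 7 genes with homology letters and no CCAAT (ANLN, BUB1B, CENPE, KIF2C, NCAPG, SMC2 and SMC4) had medians of -0.09 and 0.04. These medians describe the genes and were not tested.

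Each library held between 21010400 and 21792716 counts over genes, and all 56 genes passed the filter on low counts, with 27 to 10104 counts per library. The hESC label was checked against 12 pluripotency genes, all of which were detected. POU5F1, the defining factor OCT4, was at 1309 to 1570 CPM (a gene's count relative to the TMM-scaled library total), and LIN28A at 1141 to 1392 CPM. At 12 h 8 of the 12 were higher with anti-M8nAb and none lower, and at 24 h 3 were higher and 4 lower, beside 15.8% of all genes tested on the higher side at 12 h, and 21.2% on the higher and 21.3% on the lower side at 24 h. The neural list's NES was at 168 to 255 CPM, and the other early lineage genes were low in every group, with at most 3.13 CPM for PAX6, 2.09 for MIXL1, 0.536 for TBXT, 3.2 for FOXA2 and 1.9 for GATA3, and HAND1, SOX17, GATA6, CDX2, CGA, DCN and LUM were below the filter. Of the neural list, all 3 genes were higher at 12 h and 1 at 24 h, and GATA3 of the trophoblast list was higher at both times. These calls are imprecise in SOX1 and GATA3. SOX1 was at 2.09 on the log2 scale (standard error 0.65) at 12 h and at -1.72 (standard error 0.74, adjusted p = 0.0577) at 24 h. GATA3 had standard errors of 0.68 and 0.59. In the mesoderm list EOMES was higher at 12 h (2.22 on the log2 scale, adjusted p = 0.026) and MIXL1 lower at 24 h (-1.51, adjusted p = 0.0106). The EOMES call rested on only 4 and 1 counts with IgG and 11 and 12 with anti-M8nAb at 12 h. In the endoderm list FOXA2 was lower at 24 h (-2.03, adjusted p = 5.42e-06). Fibroblast-list genes were present in IgG as in anti-M8nAb libraries (THY1 at 388 to 565 CPM), and of 4 tested, 2 were higher and 1 lower at each time. In these bulk libraries, fewer cells in G2 or M phase and less RNA of these genes per cell cannot be told apart.

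Most of the 56 genes were lower with anti-M8nAb at both times. At 12 h, 41 were lower (73.2%) and 1 was higher, where 16.4% of the 20165 genes tested were lower and 15.8% higher, 32.2% together (edgeR quasi-likelihood test, Benjamini-Hochberg adjusted p under 0.05). At 24 h, 39 were lower (69.6%) and 5 higher, where 21.3% of all genes tested were lower and 21.2% higher, 42.5% together. The median log2 fold change of the 56 genes was -0.39 at 12 h and -0.36 at 24 h, and that of all genes tested was 0.00 at both. In limma on log2(FPKM + 0.1), the log2 fold changes were shifted against those of the edgeR fit. Over the genes in both fits the median shift was -0.06 at 12 h and -0.09 at 24 h. In limma on log2(FPKM + 1), 35.0% and 35.1% of all calls were on the higher side, against 49.2% and 49.8% in the edgeR fit.

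The fall was broad and shallow. PLK1 and CENPA, at 12 h, were the only members called with a log2 value of 1 or more in size. That was 2 lower and 0 higher at 12 h, where 2.97% of all genes tested were lower and 3.4% higher, and 0 and 0 at 24 h, where 4.84% and 4.76% were. In 48 genes at 12 h both anti-M8nAb libraries lay below both IgG libraries, and in 4 above them, where 33.3% and 32.9% of all genes tested did so. At 24 h the numbers were 42 and 9, beside 34.2% and 34.8% of all genes tested. The summed level of the 56 genes at 12 h was 6838 and 6888 CPM with IgG and 5344 and 5317 CPM with anti-M8nAb, and at 24 h it was 6826 and 6536 against 5524 and 5474 CPM. The IgG and anti-M8nAb sums did not overlap at either time.

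**Figure D2:**
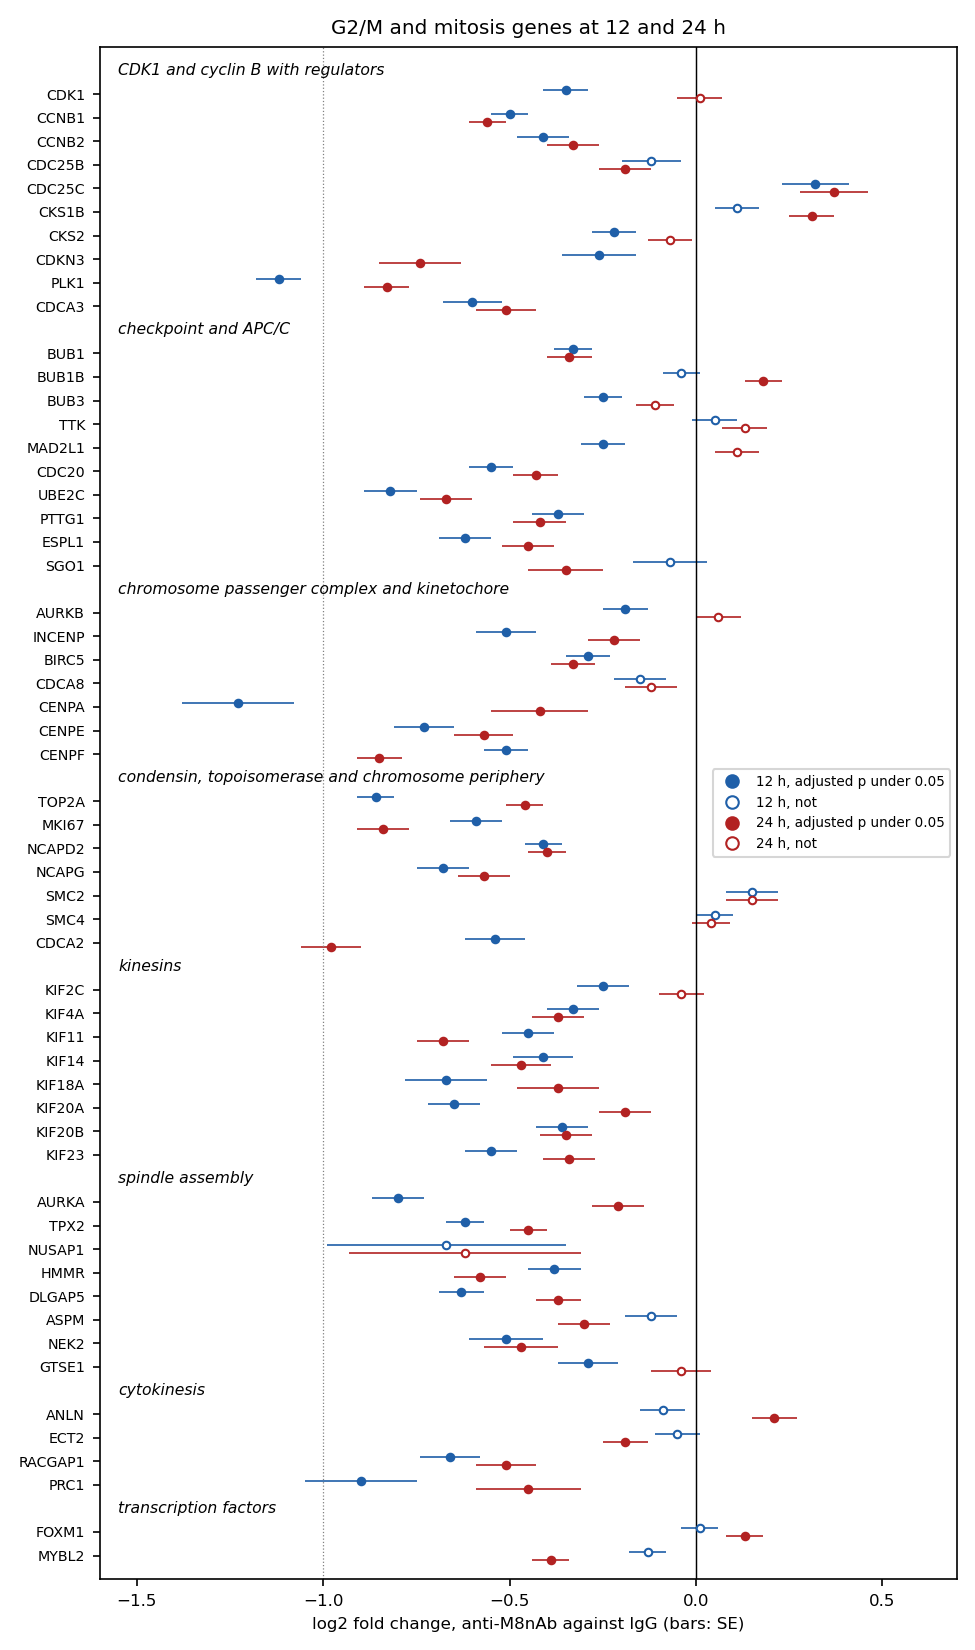
Log2 fold change of anti-M8nAb against IgG for each of the 56 genes at 12 h (blue) and 24 h (red), grouped by role, with bars for the SE and filled points for an adjusted p under 0.05. Most points lie left of 0 at both times, and CDC25C stands to the right of 0 at both.

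The 2 times called overlapping sets: 34 genes were lower at both, which is 34 of the 41 at 12 h and 34 of the 39 at 24 h. How many of all genes tested were lower at both was not counted. The overlap is therefore not read as particular to these genes. AURKB, BUB3, CDK1, CKS2, GTSE1, KIF2C and MAD2L1 were called lower at 12 h and not at 24 h, and ASPM, CDC25B, ECT2, MYBL2 and SGO1 at 24 h and not at 12 h. CDC25C was higher at both times, and ANLN, BUB1B, CKS1B and FOXM1 were higher at 24 h. CDCA8, NUSAP1, SMC2, SMC4 and TTK passed the test at neither time.

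Per length of transcript, the most abundant members in IgG at 12 h were CKS2 at 165 FPKM (mean of the authors' FPKM values), CCNB1 at 106, UBE2C at 92.3, CDC20 at 81.9 and MYBL2 at 76.9. With anti-M8nAb at 12 h, UBE2C was at 50.2 FPKM and ranked 6 among the members, while FOXM1, at 59 FPKM with IgG and 56.9 with anti-M8nAb, moved from rank 8 to 4. The lowest were PRC1 at 2.21 and NUSAP1 at 0.652 FPKM in IgG at 12 h. Of their exon sequence, 57.6% and 86.8% is shared with genes on the same strand, so both levels and their ranks are uncertain.

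The kinase that starts mitosis, its cyclins and their regulators made up 10 of the genes. At 12 h 7 were lower and 1 higher, and at 24 h 6 were lower and 2 higher. The counts of this and the other roles stand beside 16.4% lower and 15.8% higher of all genes tested at 12 h. At 24 h those shares were 21.3% and 21.2%, and the 2 higher in this group lay near the latter. CDK1, the kinase itself (chromosome 10, 60778331 to 60794852), was at 117 and 115 CPM with IgG and 88.5 and 94.5 CPM with anti-M8nAb at 12 h, and at 127 and 116 against 118 and 128 CPM at 24 h. The libraries were apart at 12 h and overlapped at 24 h. Its log2 fold change was -0.35 (SE 0.06, adjusted p = 3.29e-05) at 12 h and 0.01 (SE 0.06, adjusted p = 0.882) at 24 h, and the difference between the times, 0.36 (SE 0.09), passed its own test (adjusted p = 0.0046). CCNB1, cyclin B1, was at 254 and 256 CPM with IgG and 181 in both anti-M8nAb libraries at 12 h, and at 247 and 240 against 170 and 160 CPM at 24 h. Cyclin B1 thus stood apart from IgG in every library at both times, by -0.50 (SE 0.05, adjusted p = 3.71e-10) and -0.56 (SE 0.05, adjusted p = 7.57e-12). CCNB2, cyclin B2, fell by 0.41 and 0.33 on the log2 scale.

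PLK1, the polo-like kinase that activates CDK1 and builds the spindle poles (chromosome 16, 23677656 to 23690367), was at 133 and 130 CPM with IgG and 60.9 and 60.3 CPM with anti-M8nAb at 12 h. At 24 h it was at 136 and 142 against 79.8 and 76 CPM. Its level was 46.1% of IgG at 12 h and 56.1% at 24 h, which is -1.12 on the log2 scale (SE 0.06, adjusted p = 1.72e-18) and then -0.83 (SE 0.06 with adjusted p = 4.15e-15). The difference of 0.28 between the times passed the test (adjusted p = 0.0282) but lost it without any 1 of 6 of the libraries, with adjusted p from 0.0647 to 0.17. Of the exon sequence of PLK1, 12.8% overlaps genes on the other strand (ERN2 and ENSG00000261266).

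CDC25C, a phosphatase that removes the inhibitory phosphates from CDK1, was at 36.5 and 33.4 CPM with IgG and 43.7 in both anti-M8nAb libraries at 12 h, and at 32.3 and 32.2 against 42.9 and 40.4 CPM at 24 h. It went the other way from most of the group, by 0.32 (SE 0.09, adjusted p = 0.00324) and 0.37 (SE 0.09, adjusted p = 0.00055). Without the second IgG library at 12 h its change there was 0.27 (adjusted p = 0.0776), and 8.8% of its exon sequence overlaps FAM53C on the other strand. CDC25B, a related phosphatase, differed by -0.12 (adjusted p = 0.243) at 12 h and fell by 0.19 at 24 h (adjusted p = 0.0326), a call lost without either anti-M8nAb library or the first IgG library at 24 h (adjusted p from 0.0747 to 0.142).

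The CDK-binding subunits differed from each other. CKS1B was at 103 and 113 CPM with IgG and 120 and 114 with anti-M8nAb at 12 h, and at 112 and 111 against 133 and 144 CPM at 24 h. It rose at 24 h, by 0.31 (SE 0.06, adjusted p = 5.19e-05), and differed by 0.11 (adjusted p = 0.174) at 12 h. CKS2 fell at 12 h, by 0.22 (adjusted p = 0.00739, and 0.112 without the second IgG library or 0.058 without the second anti-M8nAb library at 12 h), and differed by -0.07 (adjusted p = 0.377) at 24 h. CKS1B and CKS2 resemble each other and have processed copies in the genome, so their counts are uncertain where reads map to more than 1 place.

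CDKN3, a phosphatase that acts on CDKs, was at 26.4 and 27.4 CPM with IgG and 22.6 and 22.4 with anti-M8nAb at 12 h, and at 26.2 and 25.9 against 16 and 15.1 CPM at 24 h. It was further from IgG at 24 h, with log2 fold changes of -0.26 (SE 0.10, adjusted p = 0.0465) and -0.74 (SE 0.11, adjusted p = 1.56e-07). The difference was -0.48 (adjusted p = 0.0224). The 12 h call was lost without any 1 of the 4 libraries of that time (adjusted p from 0.123 to 0.247), and the call of the difference without any 1 of 5 libraries (0.0523 to 0.0979). CDCA3, which promotes the degradation of WEE1, fell by 0.60 and 0.51, and 11.3% of its exon sequence overlaps GNB3 on the other strand.

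**Figure D3:**
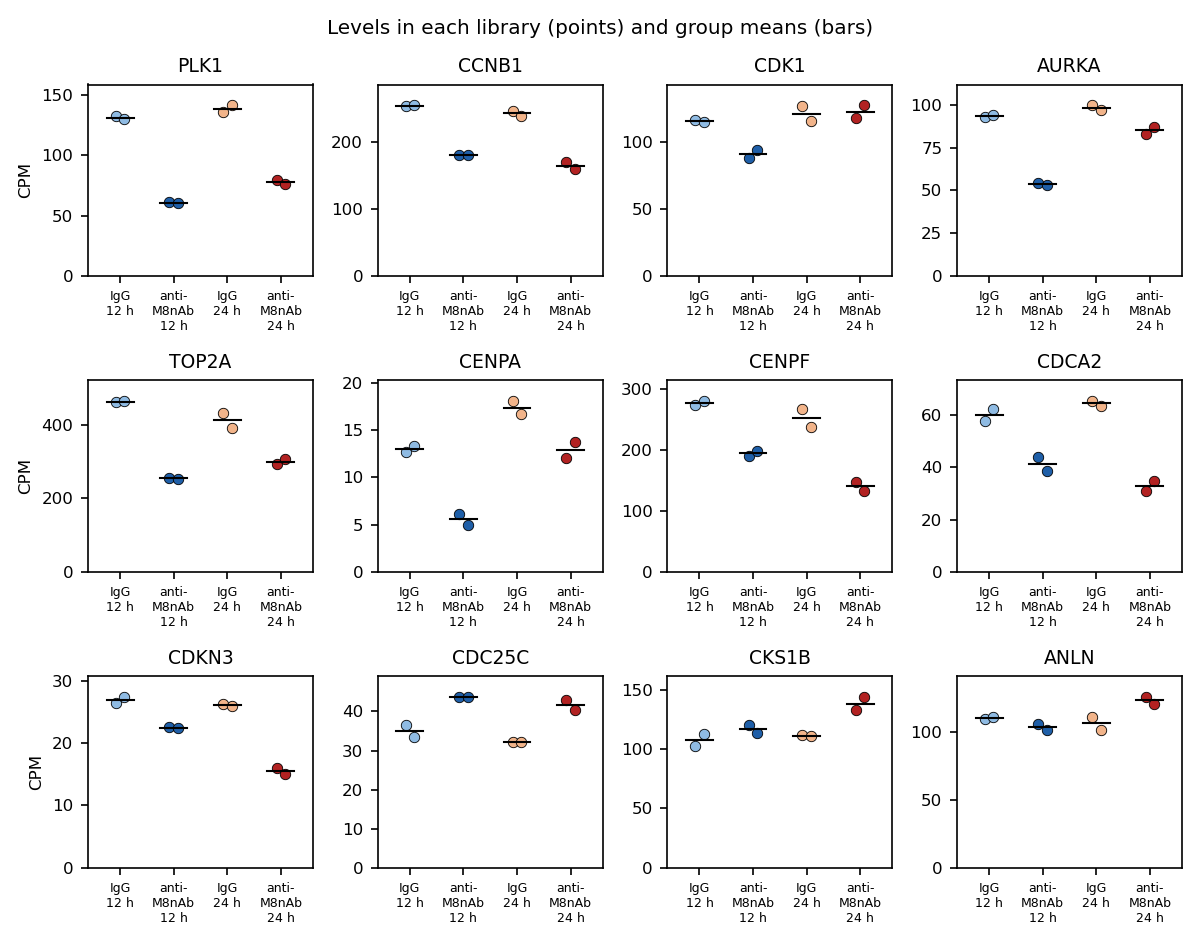
CPM of 12 of the genes in each library (points) with the mean of each group (bars), for IgG and anti-M8nAb at 12 and 24 h, each panel from 0. PLK1, CCNB1, TOP2A, CENPA, CENPF and CDCA2 lie below their IgG libraries at both times, CDK1 does so only at 12 h, and CDC25C lies above them at both.

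The spindle checkpoint and the APC/C with its substrates held 10 of the genes, of which 7 were lower at 12 h and 6 at 24 h, with 1 higher at 24 h. Of these, UBE2C, CDC20, ESPL1, PTTG1 and BUB1 were called lower at both times. UBE2C, the ubiquitin-conjugating enzyme that works with APC/C (chromosome 20, 45812576 to 45816957), was at 114 and 120 CPM with IgG and 68.3 and 64.9 with anti-M8nAb at 12 h, and at 111 and 116 against 72.6 and 70.2 CPM at 24 h. It fell by 0.82 (SE 0.07, adjusted p = 7.11e-14) and 0.67 (SE 0.07, adjusted p = 1.11e-11). CDC20, the activator of APC/C in mitosis, fell by 0.55 and 0.43, ESPL1, the protease separase that cuts cohesin, by 0.62 and 0.45, and PTTG1, its inhibitor securin, by 0.37 and 0.42.

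MAD2L1, the checkpoint protein MAD2 that holds CDC20, was at 138 and 132 CPM with IgG and 112 and 115 with anti-M8nAb at 12 h, and at 136 and 124 against 138 and 142 CPM at 24 h. Its libraries were below IgG at 12 h and above it at 24 h, by -0.25 (SE 0.06, adjusted p = 0.00107) and 0.11 (SE 0.06, with adjusted p = 0.133, or 0.17 with adjusted p = 0.043 without the first IgG library at 24 h), and the difference was 0.36 (adjusted p = 0.0025). BUB1B, the checkpoint kinase-like protein BUBR1, was at 211 in both IgG libraries and at 207 and 204 CPM with anti-M8nAb at 12 h, and at 201 and 183 against 217 and 219 CPM at 24 h. BUB1B differed by -0.04 (adjusted p = 0.646) at 12 h and rose at 24 h, by 0.18 (SE 0.05, adjusted p = 0.00537), and the difference of 0.22 had an adjusted p of 0.0505, or 0.0145 without the first IgG library at 24 h. Without the second IgG library at 24 h its change there was 0.12 (adjusted p = 0.123), and 10.2% of its exon sequence overlaps PAK6 or the readthrough gene BUB1B-PAK6 on the same strand.

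TTK, the kinase MPS1 that starts checkpoint signalling, was at 99.7 and 103 CPM with IgG and 106 and 104 with anti-M8nAb at 12 h, and at 104 and 94.8 against 106 and 111 CPM at 24 h. Its values of 0.05 (adjusted p = 0.577) and 0.13 (adjusted p = 0.11) did not pass the test, and the second was 0.19 (adjusted p = 0.0337) without the first IgG library at 24 h. BUB1, the kinase that marks the centromere, fell by 0.33 and 0.34. BUB3, its partner, fell by 0.25 at 12 h and differed by -0.11 (adjusted p = 0.115, or 0.0423 without the second IgG library) at 24 h. SGO1, the shugoshin that shields cohesin at the centromere, differed by -0.07 (adjusted p = 0.638) at 12 h and fell by 0.35 (adjusted p = 0.00406) at 24 h, and 15.8% of its exon sequence overlaps SGO1-AS1 on the other strand.

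Of the 7 genes of the chromosome passenger complex and kinetochore, 6 were lower at 12 h and 5 at 24 h, and none was higher. CENPA, the histone H3 variant that marks centromeres (chromosome 2, 26764289 to 26801067), was at 12.7 and 13.3 CPM with IgG and 6.13 and 4.97 with anti-M8nAb at 12 h, and at 18.1 and 16.7 against 12.1 and 13.8 CPM at 24 h. Its level was 42.8% of IgG at 12 h, the lowest share of any member at that time, and 74.6% at 24 h. On the log2 scale it stood at -1.23 at 12 h (SE 0.15, adjusted p = 1.01e-08) and -0.42 at 24 h (SE 0.13, adjusted p = 0.00835), with a difference of 0.80 (SE 0.20, adjusted p = 0.00476). The 24 h call was lost without the first IgG or the first anti-M8nAb library of that time (adjusted p = 0.0693 and 0.11), and the call of the difference without the second anti-M8nAb library at 12 h (0.66, adjusted p = 0.0505). Of its exon sequence, 7.08% is shared with SLC35F6 on the same strand.

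CENPF, a large protein of the kinetochore and nuclear matrix, was at 274 and 281 CPM with IgG and 191 and 199 with anti-M8nAb at 12 h, and at 268 and 238 against 148 and 133 CPM at 24 h. CENPF was the further from IgG at 24 h, by -0.85 (SE 0.06, adjusted p = 3.01e-16) after -0.51 (SE 0.06, adjusted p = 1.46e-09), and the difference was -0.34 (adjusted p = 0.00339). CENPE, the kinesin that carries chromosomes to the spindle equator, was at 84.5 and 85.5 CPM with IgG and 47.5 and 54.7 with anti-M8nAb at 12 h, and at 77.7 and 69.1 against 47.8 and 50.9 CPM at 24 h. It fell by 0.73 (SE 0.08, adjusted p = 1.41e-10) and 0.57 (SE 0.08, adjusted p = 4.33e-08).

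The passenger complex itself is made by 4 of these genes, with 3 lower at 12 h. INCENP, its scaffold, fell by 0.51 at 12 h and 0.22 at 24 h (adjusted p = 0.0116, but 0.124 without the second IgG and 0.206 without the second anti-M8nAb library at 24 h), and BIRC5, survivin, by 0.29 and 0.33. AURKB, its kinase, was at 95.6 and 94.9 CPM with IgG and 81.7 and 85.2 with anti-M8nAb at 12 h, and at 100 and 101 against 105 in both libraries at 24 h. AURKB fell by 0.19 at 12 h (adjusted p = 0.0169, but 0.111 to 0.171 without either IgG library or the first anti-M8nAb library of that time) and differed by 0.06 (adjusted p = 0.472) at 24 h. CDCA8, the subunit borealin, was at 64.2 and 66.8 CPM with IgG and 56.7 and 61.1 with anti-M8nAb at 12 h, and at 70.8 and 72.7 against 64.3 and 68.2 CPM at 24 h. Its libraries did not overlap at either time, yet -0.15 (adjusted p = 0.1) and -0.12 (adjusted p = 0.192) missed the threshold.

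Among the 7 genes of chromosome structure, 5 were lower at each time and none higher. TOP2A, the topoisomerase that untangles sister chromatids (chromosome 17, 40388525 to 40417896), was at 462 and 465 CPM with IgG and 256 and 253 with anti-M8nAb at 12 h, and at 432 and 392 against 293 and 306 CPM at 24 h. It was nearer to IgG at 24 h, at -0.46 (SE 0.05, adjusted p = 3.8e-10) after -0.86 (SE 0.05, adjusted p = 4.6e-18), and the difference was 0.41 (SE 0.07, adjusted p = 6.72e-05). With IgG alone TOP2A fell by 0.17 from 12 to 24 h (adjusted p = 0.0182). MKI67, the surfactant-like coat protein Ki-67 of mitotic chromosomes, was at 230 and 226 CPM with IgG and 157 and 146 with anti-M8nAb at 12 h, and at 233 and 236 against 147 and 116 CPM at 24 h. It stood lower at both times, by -0.59 (SE 0.07, adjusted p = 7.05e-10) and -0.84 (SE 0.07, adjusted p = 1.7e-14). The difference of -0.25 had an adjusted p of 0.0734, but 0.000744 without the first anti-M8nAb library at 24 h and 0.0226 without the second at 12 h.

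CDCA2, which brings a phosphatase to Ki-67-coated chromatin at mitotic exit, was at 57.7 and 62.4 CPM with IgG and 43.9 and 38.5 with anti-M8nAb at 12 h, and at 65.4 and 63.6 against 30.8 and 34.7 CPM at 24 h. Its level at 24 h was 50.8% of IgG, the lowest share of any member at that time, with log2 fold changes of -0.54 (SE 0.08, adjusted p = 9.71e-07) and -0.98 (SE 0.08, adjusted p = 2.76e-13). The difference of -0.43 (adjusted p = 0.00965) was lost without any 1 of 3 libraries (the first IgG or first anti-M8nAb library at 12 h or the first anti-M8nAb library at 24 h, adjusted p from 0.0749 to 0.0961).

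The condensin subunits split. NCAPD2 fell by 0.41 and 0.40 and NCAPG by 0.68 and 0.57, both being regulatory subunits of condensin I, and 33.7% of the NCAPG exon sequence overlaps LCORL on the other strand. The ATPase core subunits SMC2 and SMC4, which condensin I and II share, did not pass the test. SMC2 was at 87.4 and 84.7 CPM with IgG and 93.2 and 97.6 with anti-M8nAb at 12 h, and at 72 and 64.8 against 74.3 and 77 CPM at 24 h. Its anti-M8nAb libraries were the higher at both times, at 0.15 (adjusted p = 0.0856) and 0.15 (adjusted p = 0.0853), and the call was gained without the first IgG library at 24 h (0.16, adjusted p = 0.0414, at 12 h and 0.21, adjusted p = 0.0258, at 24 h) and, for 12 h, without the second. SMC4 was at 214 and 210 CPM with IgG and 212 and 226 with anti-M8nAb at 12 h, and at 200 and 188 against 198 and 200 CPM at 24 h. Its libraries overlapped at both times, at 0.05 (adjusted p = 0.559) and 0.04 (adjusted p = 0.616), and 22% of its exon sequence overlaps TRIM59 or IFT80 on the other strand.

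All 8 kinesins, the motor proteins of the spindle, were lower at 12 h, and 7 were at 24 h. Of all genes tested, 16.4% and 21.3% were. KIF20A, which moves the passenger complex to the central spindle, was at 87.2 and 87.3 CPM with IgG and 58.4 and 52.7 with anti-M8nAb at 12 h, and at 77 and 74.6 against 68 and 64.9 CPM at 24 h. Most of its distance from IgG was at 12 h, -0.65 (SE 0.07, adjusted p = 4.46e-10) against -0.19 (SE 0.07, adjusted p = 0.0255) at 24 h, a difference of 0.46 (adjusted p = 0.00097). The 24 h call was lost without the first IgG or the second anti-M8nAb library (adjusted p = 0.0814 and 0.17). KIF20A, at 138178719 to 138187723 on chromosome 5, lies close to CDC25C, at 138285269 to 138338355, and the 2 moved in opposite directions at both times.

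KIF11, the motor Eg5 that pushes spindle poles apart, was at 106 and 109 CPM with IgG and 80.9 and 76.6 with anti-M8nAb at 12 h, and at 113 and 98 against 69.3 and 62.3 CPM at 24 h. It stood lower at both times, by -0.45 (SE 0.07, adjusted p = 1.38e-06) and -0.68 (SE 0.07, adjusted p = 6.99e-11). KIF18A, which damps chromosome movement at the spindle equator, was at 27.1 and 23.5 CPM with IgG and 15.1 and 16.8 with anti-M8nAb at 12 h, and at 25 and 22.5 against 18.4 and 18.2 CPM at 24 h. It fell by 0.67 (SE 0.11, adjusted p = 6.82e-06) and 0.37 (SE 0.11, adjusted p = 0.00589, or 0.0687 without the first IgG library at 24 h). KIF23, KIF14, KIF20B and KIF4A, which act in the midzone and midbody, fell by 0.33 to 0.55 at 12 h and by 0.34 to 0.47 at 24 h. KIF2C, which takes microtubules apart at the kinetochore, fell by 0.25 at 12 h (adjusted p = 0.00228) and differed by -0.04 (adjusted p = 0.608) at 24 h.

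The spindle assembly factors held 8 genes, 6 of them lower at each time. AURKA, the kinase that matures spindle poles (chromosome 20, 56369389 to 56392337), was at 92.9 and 93.9 CPM with IgG and 54.2 and 53.1 with anti-M8nAb at 12 h, and at 100 and 97 against 82.9 and 87.3 CPM at 24 h. Its level went from 57.5% of IgG to 86.3%, at log2 fold changes of -0.80 (SE 0.07, adjusted p = 4.09e-13) and -0.21 (SE 0.07, adjusted p = 0.00688, or 0.0871 without the first anti-M8nAb library at 24 h). The difference of 0.59 (SE 0.09) had an adjusted p of 1.23e-05, the smallest of the 56 genes. TPX2, which activates AURKA on the spindle, was at 216 and 221 CPM with IgG and 143 and 141 with anti-M8nAb at 12 h, and at 216 and 208 against 155 in both libraries at 24 h. It fell by 0.62 (SE 0.05, adjusted p = 1.35e-12) and 0.45 (SE 0.05, with adjusted p = 3.17e-09), and the difference of 0.17 had an adjusted p of 0.153.

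HMMR and DLGAP5, both spindle microtubule binders, fell by 0.38 and 0.63 at 12 h and by 0.58 and 0.37 at 24 h, and NEK2, a kinase that parts the centrosomes, by 0.51 and 0.47. ASPM, a spindle pole protein, differed by -0.12 (adjusted p = 0.192) at 12 h and fell by 0.30 (adjusted p = 0.000602) at 24 h, a call lost without the first IgG or the second anti-M8nAb library of that time (adjusted p = 0.053 and 0.0669). GTSE1, a microtubule-binding protein of G2 and S phase, fell by 0.29 (adjusted p = 0.00337) at 12 h, lost without the second IgG or second anti-M8nAb library (adjusted p = 0.0694 and 0.152), and differed by -0.04 (adjusted p = 0.721) at 24 h. NUSAP1, a microtubule bundler, was at 2.49 and 2.16 CPM with IgG and 1.47 and 1.45 with anti-M8nAb at 12 h, and at 2.22 and 2.51 against 1.31 and 1.75 CPM at 24 h. These few counts left wide errors, at -0.67 (SE 0.32, adjusted p = 0.103) and -0.62 (SE 0.31, with adjusted p = 0.105), and 86.8% of the NUSAP1 exon sequence is shared with other genes on its strand, so its level here is uncertain.

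Of the 4 cytokinesis genes, 2 were lower at 12 h, and 3 were lower and 1 higher at 24 h. The 1 higher lay near the 21.2% of all genes tested. RACGAP1, a subunit of the centralspindlin complex with KIF23, was at 76.3 and 75.7 CPM with IgG and 47.7 and 48.5 with anti-M8nAb at 12 h, and at 77.7 and 66.7 against 51.4 and 50.2 CPM at 24 h. It fell by 0.66 (SE 0.08, adjusted p = 1.97e-09) and 0.51 (SE 0.08, adjusted p = 3.85e-07). PRC1, which bundles the midzone microtubules, was at 11.3 and 12.9 CPM with IgG and 6.67 and 6.27 with anti-M8nAb at 12 h, and at 11.9 and 12.7 against 9.01 in both libraries at 24 h. It fell by 0.90 (SE 0.15, adjusted p = 6.44e-06) and 0.45 (SE 0.14, with adjusted p = 0.00971, or 0.0696 without the second IgG library at 24 h), and 57.6% of its exon sequence is shared with another gene on its strand and 34.3% with PRC1-AS1 on the other. ANLN, the scaffold anillin of the contractile ring, was at 110 and 111 CPM with IgG and 106 and 102 with anti-M8nAb at 12 h, and at 111 and 102 against 126 and 121 CPM at 24 h.

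ANLN differed by -0.09 (adjusted p = 0.299) at 12 h and rose at 24 h, by 0.21 (SE 0.06, adjusted p = 0.00443), with a difference of 0.30 (adjusted p = 0.0164). Its 24 h call was lost without the second IgG or the first anti-M8nAb library of that time (adjusted p = 0.0711 and 0.0531), and the call of the difference without any 1 of 5 libraries (0.0656 to 0.106). ECT2, the exchange factor that switches on RhoA for the ring, differed by -0.05 (adjusted p = 0.593) at 12 h and fell by 0.19 (adjusted p = 0.00752, or 0.105 without the first IgG library) at 24 h.

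Neither transcription factor of the programme was called at 12 h, and at 24 h 1 was higher and 1 lower. FOXM1, which activates G2/M genes, was at 288 and 286 CPM with IgG and 293 and 285 with anti-M8nAb at 12 h, and at 272 and 283 against 311 and 296 CPM at 24 h. It differed by 0.01 (adjusted p = 0.91) at 12 h and was higher by 0.13 (SE 0.05, adjusted p = 0.0332) at 24 h, a call lost without any 1 of 4 libraries (both IgG libraries at 12 h and the first IgG and first anti-M8nAb libraries at 24 h, adjusted p from 0.0725 to 0.238), and 15.9% of its exon sequence overlaps ITFG2 on the other strand. MYBL2, the B-MYB partner of MuvB, was at 216 and 206 CPM with IgG and 193 in both anti-M8nAb libraries at 12 h, and at 209 and 219 against 167 and 160 CPM at 24 h. Its fold change was -0.13 (adjusted p = 0.0717) at 12 h and it fell by 0.39 (SE 0.05, adjusted p = 1.28e-07) at 24 h, with a difference of -0.26 (adjusted p = 0.0182). That difference was lost without the second IgG library of 12 or 24 h or the second anti-M8nAb library of 24 h (adjusted p from 0.0522 to 0.122).

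The response at 24 h was tested against that at 12 h as a contrast of its own. Of the 56 genes, 8 were more positive and 4 more negative at 24 h, where 5.79% and 6.54% of all genes tested were. The 4 more negative lay near that share. The 8 were CDK1, PLK1, MAD2L1, CENPA, TOP2A, KIF20A, AURKA and ANLN, and the 4 were CDKN3, CENPF, CDCA2 and MYBL2. In 37 of the 56 genes the value at 24 h was the less negative or more positive, and of the 34 lower at both times 22 were nearer to IgG at 24 h. How many of all genes tested did so was not counted, so neither number is read as a trait of these genes. The median difference was 0.10, beside 0.01 for all genes tested. Together 21.4% of the members passed the test, against 12.3% of all genes tested. INCENP, KIF11, KIF23, DLGAP5, MKI67 and BUB1B did not pass it here but passed with 1 or another library left out.

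**Figure D4:**
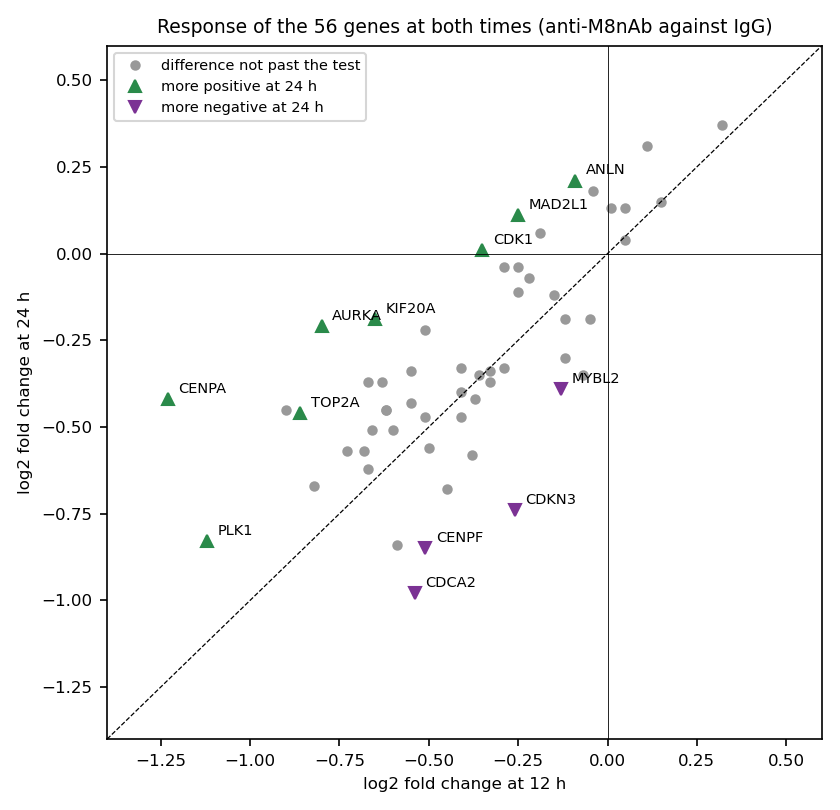
Log2 fold change of anti-M8nAb against IgG at 12 h (horizontal) and at 24 h (vertical) for the 56 genes, with the dashed line where both are equal. The 8 genes with a more positive value at 24 h (green, named) lie above the line, the 4 with a more negative one (purple, named) below it, and the other 44 (grey) did not pass the test of the difference.

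The course within each treatment gives the same differences from the other side, since it shares libraries with the comparisons above. From 12 to 24 h with IgG, 8 of the 56 genes fell and 3 rose, where 6.64% and 7.01% of all genes tested did (13.7% together), with HMMR and SMC2 both at -0.33 and CENPA at 0.42 at the ends. From 12 to 24 h with anti-M8nAb, 12 fell and 18 rose, where 15.7% and 16.1% of all genes tested did (31.9% together), from HMMR at -0.54 to CENPA at 1.22. With IgG the libraries of both times did not overlap in 20 members on the lower and 15 on the higher side (27.8% and 27.1% of all genes tested), and with anti-M8nAb in 17 and 32 (32% and 32.6%). Leaving out 1 IgG library moved the counts with IgG most, to 2 lower without the second library of either time and to 0 higher without the first library at 12 h and 1 without the second library of either time. With anti-M8nAb, 7 were lower without its second library at 24 h.

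The other genes of the division machinery, 146 in 8 lists, held genes that rose beside genes that fell. Together 51 were lower and 24 higher at 12 h, and 50 lower and 28 higher at 24 h. Their counts stand beside 16.4% lower and 15.8% higher of all genes tested at 12 h, and 21.3% and 21.2% at 24 h. Over the 146 genes, the numbers higher lay near those shares at both times. Of the 17 APC/C genes, 7 were lower and 3 higher at 12 h, and 4 lower and 5 higher at 24 h, with medians of -0.09 and 0.00. The shares higher at 12 h and lower at 24 h were near those of all genes tested. FBXO5, the APC/C inhibitor EMI1, was at 55.6 and 56.2 CPM with IgG and 34.2 and 33.3 with anti-M8nAb at 12 h, and at 71.1 and 64.3 against 27.7 and 32.7 CPM at 24 h, falling by 0.73 (adjusted p = 3.17e-09) and 1.16 (adjusted p = 1.85e-15). UBE2S, which extends ubiquitin chains on APC/C substrates, fell by 0.55 and 0.30. ANAPC16 and ANAPC15, subunits of APC/C, rose by 0.52 and 0.35 at 12 h and by 0.76 and 0.50 at 24 h.

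Of 37 further kinetochore and centromere genes, 13 were lower and 6 higher at 12 h, and 12 lower and 6 higher at 24 h (medians -0.06 and -0.14). The number higher lay near the share of all genes tested at 12 h and below it at 24 h. NDC80, the microtubule-binding kinetochore protein, fell by 0.82 and 0.28 (adjusted p = 1.95e-09 and 0.0142), and KNTC1, a subunit of the RZZ complex, by 0.51 and 0.36. CENPI, a subunit of the constitutive centromere network, rose by 0.88 and 0.75, with 90.6 and 93.8 CPM with IgG and 168 and 172 with anti-M8nAb at 12 h. MAD1L1, the partner of MAD2, lies furthest to the higher side, at 1.72 and 1.25, on only 6 to 30 counts per library, and is named because its point stands apart. MAD2L1BP, which silences the checkpoint, differed by -0.03 (adjusted p = 0.897) at 12 h and fell by 0.97 (adjusted p = 3.95e-09) at 24 h. Of 15 cohesin genes, 2 were lower and 1 higher at 12 h and 1 lower and 2 higher at 24 h (medians 0.00 and 0.05), all below the shares of all genes tested. Among them were SGO2, a shugoshin, at -0.26 and -0.73, SMC1A at 0.20 and 0.23, PDS5A at -0.22 (adjusted p = 0.00178) and 0.10 (adjusted p = 0.134), and the loader NIPBL at 0.16 (adjusted p = 0.0794) and 0.19 (adjusted p = 0.0216). Of the 4 other condensin subunits, 1 was lower and 1 higher at each time (medians -0.12 and -0.01), near the shares of all genes tested. The lower was NCAPH, the kleisin of condensin I, at -0.24 and -0.29, and the higher was a different subunit at each time.

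The list of 20 further mitotic kinesins and midbody genes came closest to the 56 genes in its counts, with 13 lower and none higher at 12 h and 13 lower and 2 higher at 24 h (medians -0.33 and -0.28). FAM83D, which brings CK1 to the spindle, was at 57.3 and 59.8 CPM with IgG and 24.9 and 26.4 with anti-M8nAb at 12 h, and at 72.7 and 75 against 28.7 and 30.2 CPM at 24 h, and fell by 1.19 and 1.33. KNSTRN, a kinetochore adaptor, fell by 0.79 and 0.43, PIMREG by 0.55 and 0.59, and CKAP2, a microtubule nucleator, by 0.36 and 0.59. Of 24 centrosome and spindle pole genes, 9 were lower and 6 higher at 12 h and 9 lower and 4 higher at 24 h (medians -0.05 and -0.13). The number higher at 24 h lay slightly below the share of all genes tested. TACC3, which stabilizes spindle fibres, fell by 0.53 and 0.73, BORA, the cofactor of AURKA towards PLK1, by 0.33 and 0.95, and HAUS1, of the augmin complex, by 0.42 and 0.63. NUMA1, the spindle pole tether, rose by 0.34 and 0.28, and CKAP5, a microtubule polymerase, fell by 0.32 at 12 h and differed by -0.03 (adjusted p = 0.66) at 24 h.

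Among 13 CDK1 regulators and cyclins A and F, 4 were lower and 3 higher at 12 h and 4 lower and 5 higher at 24 h (medians 0.00 and 0.09). WEE1, the kinase that puts the inhibitory phosphate on CDK1, was at 87.7 and 88.7 CPM with IgG and 110 and 105 with anti-M8nAb at 12 h, and at 86.3 and 82.4 against 212 and 221 CPM at 24 h. It rose by 0.29 (adjusted p = 0.000255) and 1.36 (adjusted p = 3.24e-23), and the difference of 1.08 passed its own test (adjusted p = 4.05e-13). MASTL, the kinase Greatwall that shields CDK1 substrates from dephosphorylation, rose by 0.74 and 0.65. Cyclin F (CCNF) fell by 0.40 and 1.00 and cyclin A2 (CCNA2) by 0.34 and 0.21.

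The 16 genes of DREAM, MuvB and NF-Y had 2 lower and 4 higher at 12 h and 6 lower and 3 higher at 24 h (medians 0.02 and -0.10), of which the lower at 12 h and the higher at 24 h lay slightly below the shares of all genes tested (16.4% and 21.2%). RBL2, the pocket protein p130, was at 34 and 32.5 CPM with IgG and 43 and 45.2 with anti-M8nAb at 12 h, and at 36.5 and 31.8 against 48.6 and 47.2 CPM at 24 h, rising by 0.41 (adjusted p = 0.000249) and 0.49 (adjusted p = 9.52e-06). TFDP1 and TFDP2, the partners of E2F proteins, fell by 0.26 and 0.25 at 12 h and by 0.22 and 0.81 at 24 h. Of the NF-Y subunits that bind CCAAT, NFYC rose by 0.41 and 0.29, and NFYA differed by 0.02 (adjusted p = 0.847) at 12 h and fell by 0.44 (adjusted p = 1.04e-05) at 24 h.

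**Figure D5:**
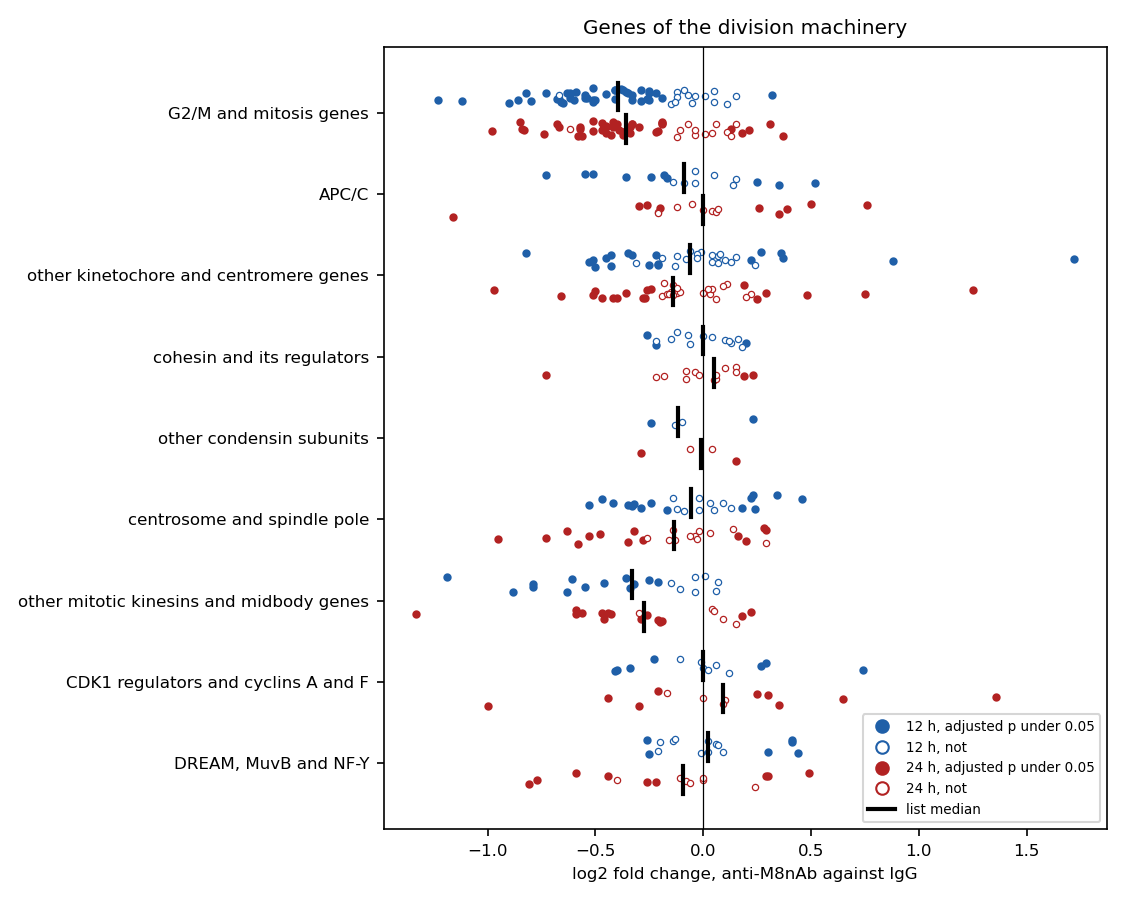
Log2 fold change of anti-M8nAb against IgG for the 56 genes (top row) and for 8 further lists of the division machinery, at 12 h (blue) and 24 h (red), with filled points for an adjusted p under 0.05 and a black bar at the median of each list. The medians of the 56 genes (-0.39 and -0.36) and of the further mitotic kinesins and midbody genes (-0.33 and -0.28) lie furthest to the left, and those of the other lists between -0.14 and 0.09.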

How the data were processed

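Bulk RNA sequencing measured the transcripts of BG01 hESCs in 8 libraries, grouped by the labels into 4 groups of 2. Reads were trimmed by the authors (Trimmomatic), mapped with the 2-pass mode of STAR on GRCh38.p14, freed of duplicates (Picard) and assigned to Ensembl genes by HTSeq. The submitters' processing notes name FastQC 0.11.9. The deposited count table holds raw counts per gene and was used for all tests. The deposited FPKM values, which the authors computed from these counts, were used for levels per length and for 1 group of alternatives. In each table, 4 further columns were not used. The count table has 1005 lines with a blank gene name, of which the largest held 49.3 to 50.2% of all counts and those outside the last 5 lines held 0.192 to 0.21% of the rest. They were left out of library sizes and tests. All 62086 identifiers were paired with a symbol in GENCODE annotation of GRCh38. Whether the counting used strand is not given in the sources used here, so reads of a gene and of its partner on the other strand may not be told apart.

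The edgeR low-count filter kept 20165 genes. Counts were scaled by TMM (factors 0.966 to 1.04) and modelled over all 8 libraries, 1 mean per group, using edgeR 4.0.16 (R 4.3.3), and contrasts were tested by the two-sided quasi-likelihood F test with Benjamini-Hochberg adjustment over all genes tested. The SE is the log2 fold change divided by the root of F. The common biological coefficient of variation was 5.53%. The squared differences between replicates of a group were on average 2.28 to 4.5 times what counting alone gives. The fit was tested on simulated data. The alternatives were DESeq2 1.42.0, DESeq2's size factors or upper-quartile scaling, no low-count filter or a mean of at least 1 CPM, protein-coding genes alone, limma 3.58.1 on log2(FPKM + 1) or log2(FPKM + 0.1) with a mean FPKM of at least 0.5 or no filter, each time alone, the replicate number as a block, leaving out 1 library at a time, and a minimum log2 change of 1 in size.

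The members, the 8 further lists and the marker genes were chosen with earlier results of these data known. Values in every library are given, within each role, for the members with the smallest adjusted p and the largest fold change at each time and up to 3 with the smallest adjusted p for the difference between the times, for every member called higher or called at neither time, and for MKI67, TOP2A, CCNB1 and CDK1. AURKB was added after its values were seen. In each further list up to 3 genes per time are named, those of smallest adjusted p, apart from 1 gene that is not reported here.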

Additional observations from a re-analysis of the deposited data

Results flagged for a closer look

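The response to anti-M8nAb differed between 12 and 24 h, by the test of the difference itself, in 12 of the 56 genes. That was 21.4% of them, against 12.3% of all genes tested. The values below are the log2 fold change at 24 h minus that at 12 h. The difference was 0.36 in CDK1, 0.28 in PLK1, 0.36 in MAD2L1, 0.80 in CENPA, 0.41 in TOP2A, 0.46 in KIF20A, 0.59 in AURKA and 0.30 in ANLN. It was -0.48 in CDKN3, -0.34 in CENPF, -0.43 in CDCA2 and -0.26 in MYBL2. These 4 more negative genes (7.14%) lay near the 6.54% of all genes tested. The calls in CDK1, MAD2L1, CENPF, TOP2A, KIF20A and AURKA held with each library left out in turn.

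In BUB1B and AURKB both anti-M8nAb libraries lay below both IgG libraries at 12 h and above them at 24 h, with differences of 0.22 (adjusted p = 0.0505) and 0.25 (adjusted p = 0.0557), which missed the threshold in this fit and passed it with protein-coding genes alone or a mean of at least 1 CPM. MAD2L1 and ANLN, among the genes above, crossed over in the same way. Of all genes tested, 33.3% lay lower without overlap at 12 h and 34.8% higher at 24 h. How many of them did both was not counted, so the crossing over is not read as particular to these genes. What moved with these differences was not tested.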

How the results depend on the processing

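The 41 genes lower at 12 h kept their sign in all 19 alternatives, and 35 of them were called in each. Of the 39 lower at 24 h, all 39 kept their sign and 30 were called in each. Counts moved by more than 1.5 times as follows. A log2 fold change of at least 1 left 2 lower and 0 higher at 12 h and 0 and 0 at 24 h. The members called higher at 12 h were 2 with protein-coding genes alone or each time alone and 0 in limma on FPKM without a filter, and those higher at 24 h were 2, 2 and 1 in the 3 limma fits (pseudocount 1, 0.1, and 1 with no filter). For the difference between the times, 1 gene was more negative without the low-count filter and in each limma fit, and 3, 4 and 1 were more positive in the limma fits. With IgG, DESeq2 called 5 lower and 1 higher from 12 to 24 h. Over all genes, limma on log2(FPKM + 1) called 1550 higher at 12 h and 2334 at 24 h, and without the filter 1091 and 2109 higher and 1945 lower at 12 h. With the smaller pseudocount it called 1550 and 2289 higher. For the difference over all genes, the numbers more negative and more positive were 551 and 368, 545 and 351, and 244 and 210 in the limma fits, and 667 and 561 without the low-count filter. The cause was not tested.

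With 1 library left out, 37 to 41 genes were lower and 0 to 2 higher at 12 h, 33 to 39 lower and 3 to 7 higher at 24 h, and 2 to 4 more negative and 6 to 10 more positive at 24 h than at 12 h. The 0 came without the second IgG library at 12 h, the 2 higher without either IgG library at 24 h, the 3 without the second IgG or first anti-M8nAb library at 24 h, and the 2 more negative without either IgG library at 12 h, the first anti-M8nAb library at 12 h or the second at 24 h. From 12 to 24 h, 2 to 10 fell and 0 to 3 rose with IgG, and 7 to 15 fell and 14 to 18 rose with anti-M8nAb. Over all genes, leaving out the first IgG library at 12 h gave 2197 lower and 2044 higher at that time, and 827 and 625 for the difference, and leaving out the second gave 2188 lower and 651 more positive.

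Signs turned only in values that were not called. In the 3 limma fits on FPKM, CDK1 at 24 h was -0.07, TTK at 12 h -0.01, AURKB at 24 h -0.03, SMC4 -0.01 at 12 h and -0.05 at 24 h, and FOXM1 at 12 h -0.05. With 1 library left out, CDK1 at 24 h ran from -0.05 to 0.08, SMC4 at 24 h from -0.01 to 0.07, KIF2C at 24 h from -0.11 to 0.02, GTSE1 at 24 h from -0.09 to 0.01, ECT2 at 12 h from -0.09 to 0.01 and FOXM1 at 12 h from -0.01 to 0.03.

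The replicate numbers did not pair the samples, as deviations of same-numbered libraries from their group means correlated at -0.06 to 0.05. With the replicate number as a block, 40 genes were lower and 1 higher at 12 h, 39 and 5 at 24 h, 5 more negative and 8 more positive at 24 h than at 12 h, 7 lower and 3 higher from 12 to 24 h with IgG, and 11 and 18 with anti-M8nAb. The 2 libraries per group limit the precision of small differences, and values near 0 such as those of SMC4 do not show that a level was the same.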
